A study of Rattus norvegicus with 52 samples.

Results

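Gene expression was compared between rat dorsal root ganglia collected 24 h after an SN lesion (SN24h) and the control ganglia of the same series, CON(SN). The members are the 6 hybridisation channels titled SN24h 1 to 3 and CON(SN) 1 to 3, out of 52 channels in 16 groups. Each group is total RNA from the L4, L5 and L6 ganglia of Rattus norvegicus, 1 pool of 3 animals, and the labels give no strain, sex or age. The labels write only SN, DR and CON. The study is known to have cut the peripheral axons of these cells in the sciatic nerve (SN) or their central axons in the dorsal root (DR). SN24h was set against CON(SN), against the SN pools at the neighbouring times (SN12h and SN48h), and against the pool collected 24 h after a DR lesion (DR24h) with its own control, CON(DR). No genotype, transgene or drug is named for any group.

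The 3 channels of a group are repeat hybridisations of 1 pool, so the p-values below measure the spread between hybridisations and compare 2 pools. Lesion and pool cannot be told apart. SN24h was labelled with Cy5, Cy5 and Cy3 in channels 1, 2 and 3, and CON(SN) with Cy3, Cy3 and Cy5. Values are intensities on a linear scale, already normalised by the authors, with channel medians from 120 to 125. None of the 6 channels was among the 6 of 52 that stood apart on the first principal component. The log2 values of all 8455 probes were fitted with limma in 2 ways: a channel fit, with group and dye as terms over all 52 channels, and a within-array fit on the Cy5 minus Cy3 differences of 26 arrays. The array of each channel is not in the files. It was inferred by how closely channel differences matched those of the log2 coefficients that the authors deposited for each time. This placed SN24h channel 1 and CON(SN) channel 1 on the same array. Within-array values and the authors' deposited values are therefore not independent of each other. Within-array values remove what the 2 channels of an array share. For CON(SN) channel 2, 124 probes lay at least 2-fold below both other CON(SN) channels, and 93 of them were displaced the same way in SN12h channel 1, its inferred partner. For SN24h channel 2 the count was 56 probes, 42 of them also low in its partner SN72h channel 3. Other displacements were hardly shared. CON(SN) channel 3 had 169 probes below and 88 above both other control channels, with 0 and 1 shared by its partner SN7d channel 2. SN24h channel 3 had 167 probes above, 1 of them shared by its partner SN48h channel 3. Within-array values do not remove such unshared displacements. Differences are log2 values, SN24h minus CON(SN), ± SE, from the channel fit unless stated, and a probe was called at a Benjamini-Hochberg adjusted p below 0.05 over all probes with at least 1.5-fold change.

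A dorsal root ganglion holds the cell bodies of sensory neurons, wrapped by satellite glia, together with Schwann cells on the axons, resident macrophages, blood vessels and blood cells. After a cut of the peripheral axon these neurons are known to switch on transcription factors such as Atf3 and Jun, and then genes for axon growth, neuropeptides and signals to glia and immune cells. A cut of the central branch is known to evoke a weaker form of that response. The ganglion was recognisable by its markers: among 12 measured neuron markers the neurofilament gene Nefl averaged 53840 in SN24h and 48720 in CON(SN) and peripherin (Prph) 32910 in SN24h and 34670 in CON(SN), and Pmp22, a Schwann cell myelin gene, averaged 47590 in SN24h and 44890 in CON(SN). In such whole ganglia, fewer cells of a type and less RNA per cell cannot be told apart.

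At 24 h, 24 probes were called higher in SN24h (0.284% of 8455) and 18 lower (0.213%). For all 42, the 3 SN24h channels lay on one side of the 3 CON(SN) channels with no overlap. Over all probes the 3 SN24h channels lay above the 3 control channels for 668 (7.9%) and below for 642 (7.59%). The rises were larger than the falls, with 18 of 24 rises and 8 of 18 falls reaching 2-fold, and 3 rises and no fall reaching 4-fold. Differences of all probes were small by comparison, with 5% below -0.34, a median of -0.01 and 5% above 0.35. Within arrays 50 probes were called (0.591%), 31 higher (0.367%) and 19 lower (0.225%), and 20 rises and 11 falls were called in both fits. In the authors' deposited table, which gives a 24 h coefficient for each probe, all 24 rises were above 0 and all 18 falls below 0, and this table was made from the same arrays. There, 23 of the rises and 16 of the falls reached 1.5-fold.

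**Figure D1:**
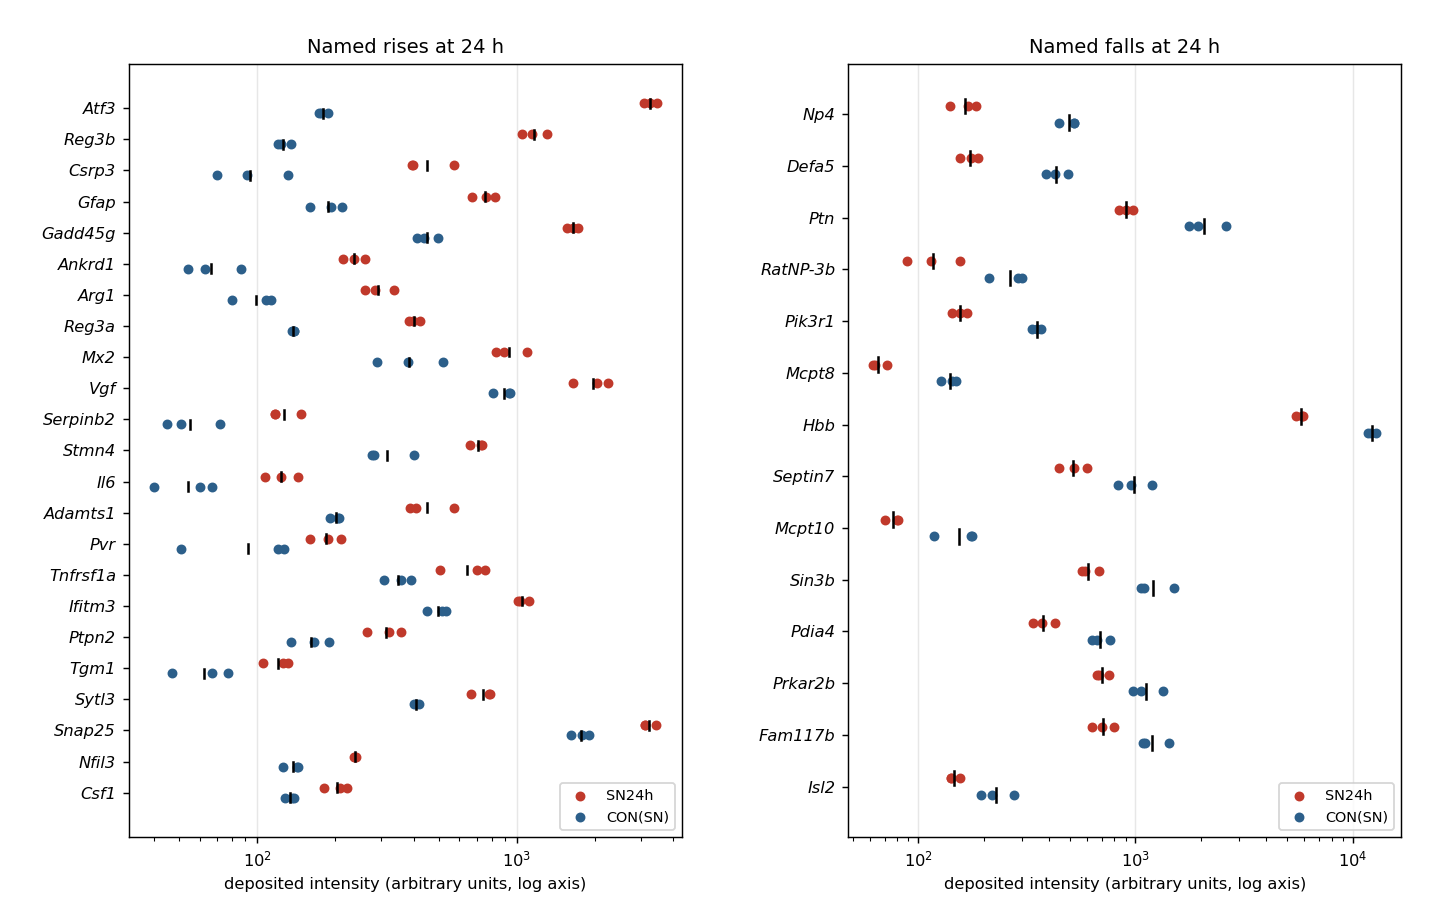
Deposited intensity in each channel (log axis) for the 23 named rises and 14 named falls (without Calm3), with SN24h in red above CON(SN) in blue and a black bar at the mean of the log2 values of each 3 channels. In every row the red and blue points are separate; Atf3 stands farthest apart, at 3083 to 3460 in SN24h and 173 to 187 in CON(SN).

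The transcription factor Atf3, a stress-inducible member of the ATF/CREB family and the best known marker of an injured sensory neuron, changed most. Its intensity was 3083, 3460 and 3263 in the SN24h channels, against 187, 176 and 173 in the CON(SN) channels. All lesion channels, of either dye, were far above all control channels. The difference was 4.19 ± 0.22, or 18.2-fold (adjusted p = 1.44e-17), 4.09 ± 0.23 within arrays, and 4.09 in the authors' deposited table. Nfil3, a basic leucine zipper repressor, read 235, 241 and 239 in SN24h and 143, 142 and 126 in CON(SN), with little spread in either pool. It rose by 0.78 ± 0.17 (adjusted p = 0.00789), and within arrays the value was 0.64 ± 0.14 with an adjusted p of 0.052. These were the 2 called of 21 measured injury-induced transcription factors, against 0.284% of all probes called higher. The median of the list was 0.39, against -0.01 for all probes. At an unadjusted p below 0.05, 10 of the 21 were higher and none lower, against 194 higher and 199 lower of 8455.

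Several well known members of that group did not pass. Jun, the AP-1 subunit, read 528, 623 and 508 in SN24h and 298, 337 and 216 in CON(SN), so that all lesion channels were above all control channels, but the difference of 0.98 ± 0.27 had an adjusted p of 0.122. Smad1, which carries bone morphogenetic protein signals, was at 0.71 ± 0.23 (adjusted p = 0.305) with 343, 378 and 410 in SN24h and 244, 257 and 229 in CON(SN). Sox11 was at -0.04 ± 0.30 and Stat3, the cytokine-activated factor, at -0.15 ± 0.29, and the channels of both pools overlapped. Crem and Klf4, a cAMP-responsive factor and a zinc finger factor, were called within arrays alone, at 0.77 ± 0.13 and 0.60 ± 0.12. Crem read 280, 180 and 206 in SN24h and 137, 80 and 121 in CON(SN). Crem and Klf4 were named after their values were seen.

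Of 27 measured growth-associated genes 7 rose and none fell, with a median of 0.34 for the list, against 0.284% of all probes called higher. This list, like the others, was chosen with earlier results of these data known, so its count is no separate support. Reg3b, a secreted C-type lectin, was the second largest rise of all probes, at 1310, 1143 and 1045 in SN24h and 135, 123 and 120 in CON(SN). That was 3.29 ± 0.29, or 9.78-fold (adjusted p = 1.86e-10), and 3.48 ± 0.34 within arrays. Its relative Reg3a read 424, 398 and 385 in SN24h and 136, 139 and 138 in CON(SN), a difference of 1.54 ± 0.26. Both lectins were tight in the control pool and several-fold higher in each lesion channel. The related coding sequences can share hybridisation signal, and how much of it Reg3a and Reg3b share was not tested.

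Csrp3, the muscle LIM protein, which binds the actin cytoskeleton, read 575, 395 and 399 in SN24h and 91, 70 and 131 in CON(SN). Lesion channel 1 was the highest, all lesion channels were far above the controls, and the difference was 2.21 ± 0.20 (adjusted p = 4.51e-10). Ankrd1, an ankyrin repeat protein first known from heart muscle, read 261, 236 and 214 in SN24h and 87, 63 and 54 in CON(SN). The change of Ankrd1 was 1.81 ± 0.21 (adjusted p = 1.09e-07). Its control values were below the channel median and its lesion values above it. Arg1, the cytosolic arginase that makes the polyamine precursor ornithine, read 337, 261 and 285 in SN24h and 113, 108 and 80 in CON(SN). It rose by 1.61 ± 0.21 (adjusted p = 2.68e-06). Arg1 was the 1 call among 18 measured genes of polyamine and arginine metabolism (median 0.21), against 0.284% of all probes called higher. Stmn4, a stathmin-family regulator of microtubules, read 737, 657 and 729 in SN24h and 276, 282 and 402 in CON(SN), and rose by 1.18 ± 0.20 (adjusted p = 0.000353). Tgm1, the transglutaminase of the skin's cornified envelope, was dim, at 131, 105 and 126 in SN24h and 67, 47 and 77 in CON(SN), and its rise of 0.94 ± 0.22 was not called within arrays (adjusted p = 0.0874).

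Gap43, the growth cone protein most often used as a regeneration marker, varied widely between channels at 24 h. It read 4826, 941 and 3900 in SN24h and 3580, 1817 and 3495 in CON(SN), so that channel 2 of each pool was low and the pools overlapped. The channel fit gave -0.19 ± 0.95 and the within-array fit 0.28 ± 0.13, and a second probe of the gene was at 0.37 ± 0.22. None of these was called. Sprr1a, a small proline-rich protein, was at 0.23 ± 0.24, with 54, 72 and 85 in SN24h and 55, 44 and 90 in CON(SN).

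Gadd45g and Gadd45a belong to a growth arrest and DNA damage family whose proteins bind cell cycle and stress kinase proteins. Gadd45g read 1714, 1564 and 1642 in SN24h and 497, 440 and 414 in CON(SN), with no overlap. It rose by 1.87 ± 0.18 (adjusted p = 8.19e-10). Gadd45a read 2456, 2097 and 1846 in SN24h and 455, 319 and 445 in CON(SN), again with no overlap. Its channel-fit value of 2.29 ± 0.81 did not pass (adjusted p = 0.501), the SE being set by the spread of this probe over the channels of all 16 groups. Within arrays Gadd45a was called, at 2.09 ± 0.19 (adjusted p = 1.13e-05), and it stood at 2.25 in the authors' deposited table. It was named after its values were seen.

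Promoter sequences are shown for the largest rises that have an entry in the RefSeq promoter table of build GRCr8 (Reg3b, Gfap, Gadd45g and Reg3a), and for Vgf and Il6, which were added after their letters were seen because they hold the site that ATF and CREB family proteins bind. Each is the 250 bases before the start of the gene, 5′ to 3′ on the strand of the gene. Capitals mark matches, on either strand, to TGACGTCA (the ATF and CREB site), TGANTCA (the AP-1 site), TTCNNNGAA (the STAT site) and TATAAA (the TATA box). The positions are chr4:112419526-112419775 on the plus strand for Reg3b, chr10:88361662-88361911 on the minus strand for Gfap, chr17:13530352-13530601 on the minus strand for Gadd45g, chr4:112430147-112430396 on the plus strand for Reg3a, chr12:25277021-25277270 on the minus strand for Vgf and chr4:5894576-5894825 on the minus strand for Il6. Of the 2 starts listed for Reg3a the first is shown. An entry was matched for 15 of the 23 named rises and 12 of 14 named falls, Calm3 left aside because a dimmer probe carries its call.
Reg3b: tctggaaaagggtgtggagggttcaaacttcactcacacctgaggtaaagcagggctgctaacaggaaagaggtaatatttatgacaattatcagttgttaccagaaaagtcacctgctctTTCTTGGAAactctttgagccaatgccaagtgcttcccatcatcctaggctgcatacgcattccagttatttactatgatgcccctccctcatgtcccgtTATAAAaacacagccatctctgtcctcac
Gfap: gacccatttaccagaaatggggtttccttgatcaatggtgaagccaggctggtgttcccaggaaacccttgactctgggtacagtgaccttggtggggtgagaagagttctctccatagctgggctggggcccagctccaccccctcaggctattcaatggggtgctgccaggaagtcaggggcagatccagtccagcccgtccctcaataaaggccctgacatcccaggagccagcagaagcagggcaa
Gadd45g: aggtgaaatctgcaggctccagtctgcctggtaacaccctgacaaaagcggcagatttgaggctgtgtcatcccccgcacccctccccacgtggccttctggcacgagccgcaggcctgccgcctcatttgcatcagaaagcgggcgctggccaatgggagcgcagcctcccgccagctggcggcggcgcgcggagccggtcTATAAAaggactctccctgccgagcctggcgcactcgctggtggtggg
Reg3a: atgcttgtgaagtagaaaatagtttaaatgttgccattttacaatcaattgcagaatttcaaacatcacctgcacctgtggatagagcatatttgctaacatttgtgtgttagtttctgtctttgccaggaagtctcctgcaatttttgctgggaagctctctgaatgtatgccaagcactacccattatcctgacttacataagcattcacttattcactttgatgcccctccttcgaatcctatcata
Vgf: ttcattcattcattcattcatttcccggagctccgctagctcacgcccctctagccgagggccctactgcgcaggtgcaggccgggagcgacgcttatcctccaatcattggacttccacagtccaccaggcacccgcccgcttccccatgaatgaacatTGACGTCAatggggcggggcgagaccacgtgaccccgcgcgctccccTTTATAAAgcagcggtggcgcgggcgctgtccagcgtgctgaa
Il6: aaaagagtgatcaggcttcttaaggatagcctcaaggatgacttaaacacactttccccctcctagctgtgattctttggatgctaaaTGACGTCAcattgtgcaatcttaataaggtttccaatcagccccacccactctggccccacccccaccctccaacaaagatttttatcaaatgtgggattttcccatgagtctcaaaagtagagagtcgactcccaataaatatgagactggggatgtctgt
In these windows TGACGTCA starts 90 bases before the start of Vgf and 162 bases before that of Il6, and no other of the 15 rises holds it. Among all 33360 different promoters of the same length 1.59% hold TGACGTCA, 6.35% TGANTCA, 7.68% TTCNNNGAA and 12.9% TATAAA. The STAT site stands 129 bases before the start of Reg3b, and a TATA box 29 bases before it. In the Vgf window the TATA box matches in both orientations and these matches overlap. Among the 12 falls with an entry, Isl2 holds TGACGTCA and Ptn the AP-1 site. These are matches of letters and no binding was measured.

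Among 21 measured neuropeptide genes Vgf alone was called in the channel fit, against 0.284% of all probes called higher. Vgf, a secreted precursor of several peptides, read 1648, 2026 and 2246 in SN24h and 931, 941 and 812 in CON(SN). Every lesion channel exceeded every control channel, and the rise was 1.26 ± 0.21 (adjusted p = 0.000361) and 1.13 ± 0.19 within arrays. The list as a whole had a median of -0.01, as for all probes.

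The peptides best known for their induction after sciatic lesion were not called in the channel fit at 24 h. Galanin (Gal) read 1604, 1833 and 232 in SN24h and 423, 63 and 663 in CON(SN). Channel 3 of SN24h lay below 2 of the control channels, and control channel 2 was the lowest, so the channel difference of 1.66 ± 0.67 was not called (adjusted p = 0.691). It was 2.63 without SN24h channel 3 and 0.70 without CON(SN) channel 2. Within arrays Gal was at 1.53 ± 0.19 (adjusted p = 0.000419). Neuropeptide Y (Npy) read 217, 427 and 214 in SN24h and 171, 158 and 728 in CON(SN), overlapping pools with a difference of -0.02 ± 0.46. Vasoactive intestinal peptide (Vip) was dim and higher in each lesion channel, at 82, 78 and 97 in SN24h and 61, 27 and 57 in CON(SN), with a difference of 0.89 ± 0.27 (adjusted p = 0.214). Corticotropin-releasing hormone (Crh) went the other way, at 145, 151 and 200 in SN24h and 304, 326 and 320 in CON(SN). Its difference of -0.91 was called within arrays (adjusted p = 0.0229) and not in the channel fit (adjusted p = 0.156).

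Snap25 is a membrane protein of the vesicle fusion machinery. It was the call of the neuron markers (1 of 12) and of the synaptic vesicle genes (1 of 23, median -0.08), against 0.284% of all probes. It read 3121, 3104 and 3423 in SN24h and 1617, 1774 and 1901 in CON(SN), and rose by 0.89 ± 0.20 (adjusted p = 0.0146) and by 0.99 ± 0.18 within arrays. Sytl3, a synaptotagmin-like protein that binds Rab27 on secretory vesicles, read 665, 779 and 788 in SN24h and 409, 400 and 419 in CON(SN). That was a rise of 0.93 ± 0.18 (adjusted p = 0.00234). The other neuron markers were not called, and their summed intensity ran from 181771 to 215449 in SN24h and from 177881 to 190280 in CON(SN).

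Signals between neurons, glia and immune cells formed a further group. Of 22 measured trophic factors, cytokines and chemokines 2 rose, with a median of 0.08, against 0.284% of all probes called higher. Interleukin 6 (Il6) was dim, at 143, 124 and 107 in SN24h and 67, 60 and 40 in CON(SN), and every control channel was below every lesion channel. It rose by 1.17 ± 0.21 (adjusted p = 0.000879) and by 1.11 ± 0.11 within arrays (adjusted p = 4.76e-05). Macrophage colony-stimulating factor (Csf1), which sustains macrophages and microglia, read 208, 181 and 221 in SN24h and 128, 139 and 136 in CON(SN). Its rise of 0.62 ± 0.14, the smallest called, was 1.54-fold (adjusted p = 0.0237). The monocyte-attracting chemokine Ccl2 read 298, 324 and 352 in SN24h and 193, 244 and 166 in CON(SN), separate channels whose difference of 0.78 ± 0.21 was not called (adjusted p = 0.107).

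Receptors and inhibitors of such signals were called as well. Tnfrsf1a, the type 1 receptor of tumour necrosis factor, read 505, 701 and 756 in SN24h and 390, 358 and 307 in CON(SN). It rose by 1.02 ± 0.20 (adjusted p = 0.00221), with an adjusted p of 0.0703 within arrays and a value of 0.58 in the authors' deposited table. Between the control pools, CON(SN) minus CON(DR), Tnfrsf1a was at -0.64 and not called, the lowest of the 24 called rises, whose median was 0.10. It was the 1 call among 12 measured neurotrophic and cytokine receptors (median 0.03), against 0.284% of all probes called higher. Ptpn2, a tyrosine phosphatase that acts on JAK and STAT proteins, read 357, 323 and 264 in SN24h and 189, 165 and 135 in CON(SN), a rise of 0.98 ± 0.24 (adjusted p = 0.0374). The lesion channels of Ptpn2 spread by more than those of the lectins and did not reach the control range. The interleukin 4 receptor Il4r was called within arrays alone, at 0.69 ± 0.13, with 332, 331 and 367 in SN24h and 236, 270 and 191 in CON(SN), and was named after its values were seen.

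Of 14 measured interferon response genes 2 rose, against 0.284% of all probes, and the list's median was 0.11. Mx2, a dynamin-like antiviral GTPase, read 893, 831 and 1095 in SN24h and 380, 519 and 289 in CON(SN), a rise of 1.39 ± 0.24 (adjusted p = 0.000436). Ifitm3, a membrane protein that blocks virus entry, read 1025, 1115 and 1008 in SN24h and 534, 449 and 516 in CON(SN), and rose by 1.01 ± 0.15 (adjusted p = 7.68e-05). The other 12 were not called, and Mx1, the close relative of Mx2, averaged 129 in SN24h and 114 in CON(SN) with a difference of 0.11. Mx1 was named after its value was seen.

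Adamts1, a secreted metalloprotease, read 574, 388 and 408 in SN24h and 205, 207 and 190 in CON(SN), a rise of 1.13 ± 0.26 (adjusted p = 0.0193) and 1.31 ± 0.15 within arrays. Serpinb2, an inhibitor of plasminogen activators, was dim at 148, 117 and 117 in SN24h and 72, 45 and 51 in CON(SN). Its rise of 1.23 ± 0.24 (adjusted p = 0.00366) was not called within arrays (adjusted p = 0.0643). Pvr, a nectin-like adhesion molecule, read 211, 187 and 159 in SN24h and 127, 120 and 51 in CON(SN). Control channel 3 was far below the other control channels. The difference was 1.04 ± 0.25 (adjusted p = 0.0397), and without control channel 3 it was 0.60 and not called.

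Gfap is the intermediate filament of satellite glia and non-myelinating Schwann cells. Gfap was the 1 call among 14 measured satellite glia and immature Schwann cell markers, against 0.284% of all probes called higher. It read 673, 825 and 762 in SN24h and 213, 193 and 160 in CON(SN), with every lesion channel far above every control channel. The rise was 1.99 ± 0.20, or 3.97-fold (adjusted p = 5.98e-09), and 1.71 ± 0.17 within arrays. A second, dimmer Gfap probe was at 0.10 ± 0.22 and was not called. The median of the glial list was -0.04, and its summed intensity was 18243 to 18848 in SN24h and 20310 to 22908 in CON(SN). The lower sum was mostly S100b, named after its values were seen, which averaged 8888 in SN24h and 12810 in CON(SN) and was not called (-0.53, adjusted p = 0.612). No gene of the 8 measured myelinating Schwann cell markers was called by limma in either fit (2 at an unadjusted p below 0.05). Among them Mbp, a myelin protein, read 9, 423 and 380 in SN24h and 260, 387 and 465 in CON(SN), and its value of -1.71 ± 0.64 became 0.11 without SN24h channel 1.

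**Figure D2:**
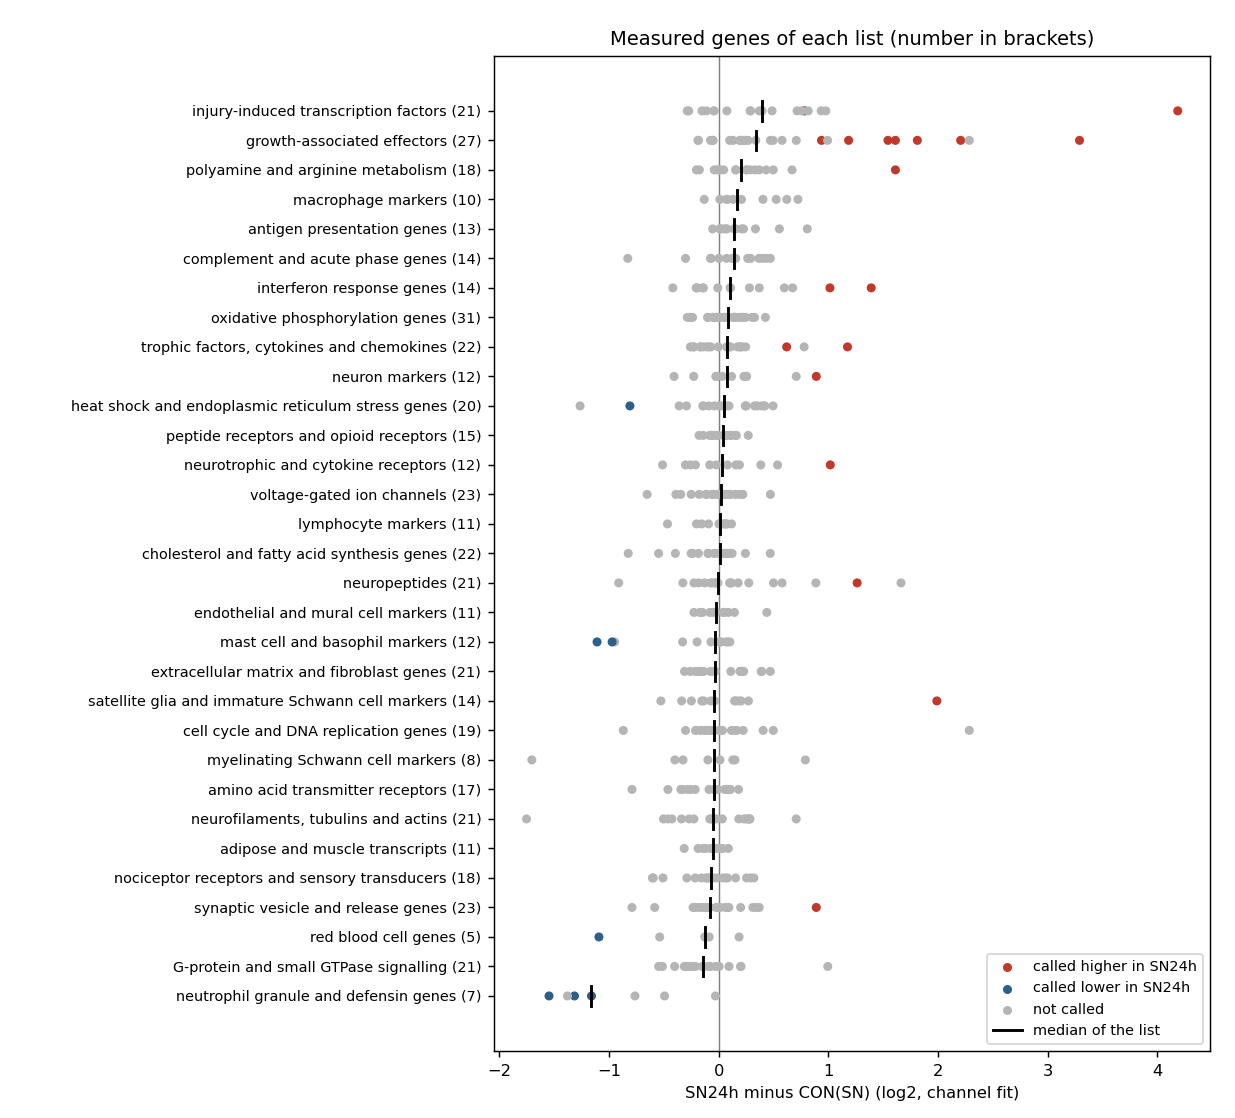
Log2 difference, SN24h minus CON(SN), of each measured gene in 31 gene lists, ordered by the list's median (black bar), with called rises in red, called falls in blue and others in grey. Calls lie at the right end of the injury factor and growth-associated lists and at the left end of the neutrophil list, whose median of -1.16 is the lowest.

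The falls held a group of granule protein genes of white blood cells. Of 7 measured neutrophil granule and defensin genes 3 fell in the channel fit and 6 within arrays, against 0.213% and 0.225% of all probes. All 7 were below 0, and the median of the list, chosen with earlier results of these data known, was -1.16. The alpha defensin Np4, an antimicrobial peptide of neutrophil granules, read 184, 169 and 140 in SN24h and 522, 519 and 444 in CON(SN), so that every lesion channel lay far below every control channel. Np4 fell by 1.55 on the log2 scale (SE 0.24, adjusted p = 9.46e-05), the largest fall. Defa5, another defensin, read 155, 189 and 175 in SN24h and 426, 488 and 386 in CON(SN), and fell by 1.32 (SE 0.23). RatNP-3b read 156, 114 and 89 in SN24h and 288, 300 and 211 in CON(SN), and fell by 1.16 (SE 0.28, adjusted p = 0.0314). The 3 defensins are related in sequence, and shared hybridisation was not tested.

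The calcium-binding proteins S100a8 and S100a9 and the cathelicidin Camp, which neutrophils also store, were called within arrays alone and were named after their values were seen. S100a8 read 81, 47 and 90 in SN24h and 180, 202 and 177 in CON(SN), Camp read 60, 91 and 74 in SN24h and 128, 152 and 105 in CON(SN), and neither overlapped. S100a9 was at 58, 53 and 60 in SN24h and 109, 56 and 79 in CON(SN), with control channel 2 inside the lesion range. Their within-array differences were -1.11, -0.99 and -0.78 for S100a8, Camp and S100a9 in this order. Mmp8, the neutrophil collagenase, averaged 37.7 in SN24h and 36.7 in CON(SN), far below the channel median. The summed intensity of the 7 genes was 660 to 740 in SN24h and 1445 to 1749 in CON(SN).

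Of 12 measured mast cell and basophil genes 2 fell, against 0.213% of all probes. Mcpt8, whose mouse counterpart marks basophils, read 62, 72 and 63 in SN24h and 149, 143 and 127 in CON(SN), and fell by 1.11 (SE 0.21, adjusted p = 0.00191). Mcpt10 read 80, 70 and 81 in SN24h and 175, 176 and 118 in CON(SN), and fell by 0.97 (SE 0.21, adjusted p = 0.00789). Mcpt9, at 63, 101 and 71 in SN24h and 135, 172 and 137 in CON(SN), fell within arrays (-1.07, adjusted p = 0.00238) and missed the limit in the channel fit (adjusted p = 0.0856). The other mast cell genes looked at in the list were not called: the proteases Cma1, Mcpt1, Mcpt4, Tpsab1 and Tpsb2 and the receptors Kit and Fcer1a were between -0.33 and 0.08, and the median of the 12 genes was -0.04. These genes and Mcpt9 were named after their values were seen. In SN24h all 3 proteases read below the channel median.

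Hbb, the beta globin of red blood cells, read 5919, 5875 and 5509 in SN24h and 12848, 11791 and 12175 in CON(SN), tight in both pools. It fell by 1.09 (SE 0.19, adjusted p = 0.000766) and by 1.15 within arrays. A second, very dim Hbb probe was at 0.35 ± 0.28. Hbb was the 1 call of 5 measured red blood cell genes (median -0.13), against 0.213% of all probes called lower. The part of a different amount of blood or of such cells in the 2 pools in these falls was not tested. Between the control pools, CON(SN) minus CON(DR), Np4 was at 0.24, Defa5 at -0.0042, RatNP-3b at 0.25, Mcpt8 at -0.0015, Mcpt10 at 0.38 and Hbb at 0.37, none of them called.

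The remaining falls were of genes with varied roles. Ptn, the secreted growth factor pleiotrophin, read 838, 972 and 900 in SN24h and 1763, 2602 and 1946 in CON(SN). It fell by 1.20 (SE 0.23, adjusted p = 0.00221) and by 1.07 within arrays. Pik3r1, the regulatory subunit of phosphoinositide 3-kinase, read 143, 155 and 168 in SN24h and 333, 369 and 353 in CON(SN), tight in both pools, and fell by 1.16 (SE 0.24, adjusted p = 0.00789). Pdia4, a protein disulfide isomerase of the endoplasmic reticulum, read 336, 370 and 425 in SN24h and 664, 766 and 631 in CON(SN), a fall of 0.81 (SE 0.16, adjusted p = 0.00234). It was the 1 call among 20 measured heat shock and endoplasmic reticulum stress genes (median 0.05), against 0.213% of all probes called lower.

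The other 6 named falls were smaller or less certain. Sin3b, a scaffold of histone deacetylase complexes, read 567, 583 and 676 in SN24h and 1064, 1503 and 1099 in CON(SN), a difference of -0.92 ± 0.17. Septin7, a cytoskeletal GTPase, read 599, 444 and 520 in SN24h and 953, 833 and 1194 in CON(SN), a difference of -1.04 ± 0.25. Prkar2b, a regulatory subunit of protein kinase A, was at -0.76 ± 0.18, Fam117b at -0.70 ± 0.15 and Isl2, a LIM homeodomain factor, at -0.69 ± 0.17. Within arrays these 5 kept their sign and missed the limit, with adjusted p from 0.0563 for Isl2 to 0.174 for Prkar2b. Calm3, 1 of the calmodulin genes, was called by its dimmer probe, at 646, 640 and 639 in SN24h and 1131, 1206 and 1331 in CON(SN) (-0.94 ± 0.15). Its brighter probe was at 0.46 ± 0.21 and not called, so the 2 probes disagree in sign.

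**Figure D3:**
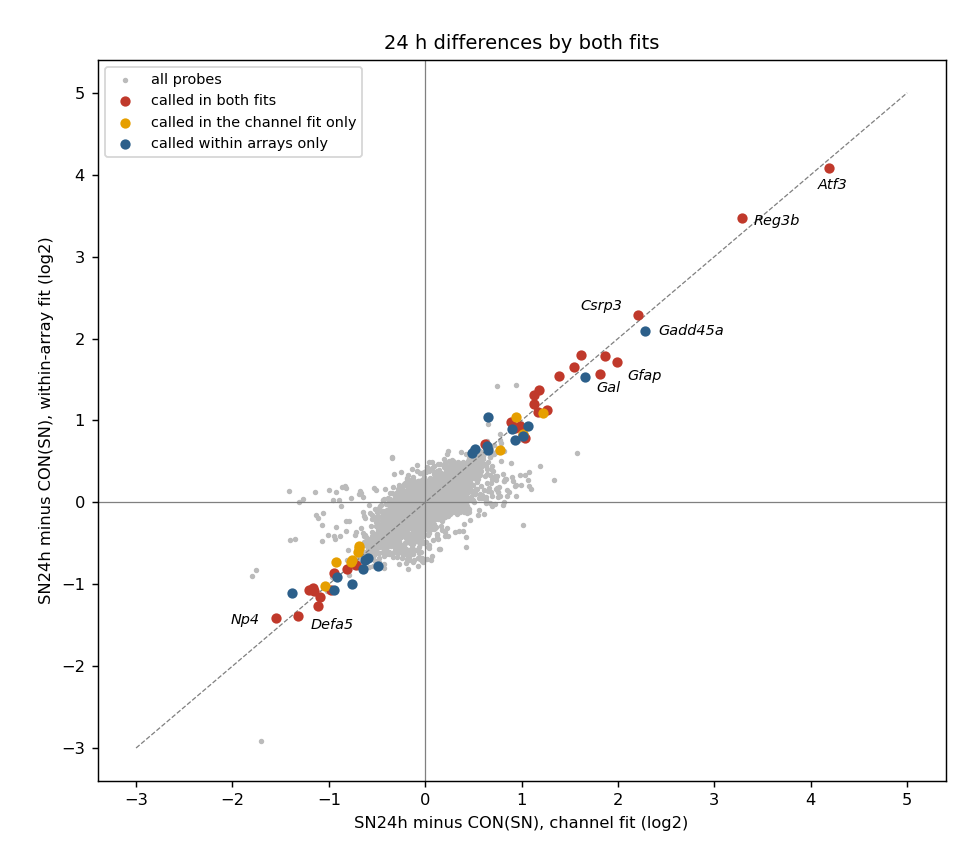
Log2 difference SN24h minus CON(SN) for every probe in the channel fit (x axis) and the within-array fit (y axis), with called probes coloured by the fit that called them and a dashed line of equality. Called probes lie near the dashed line in both directions; Gadd45a and Gal are among those called within arrays alone.

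The calls held to the removal of single channels in part. Of the 38 named calls 21 were called whichever of the 6 channels was left out, 14 rises and 7 falls. The rises that lost the call at least once were Serpinb2, Il6, Adamts1, Pvr, Ptpn2, Tgm1, Snap25, Nfil3 and Csf1, and the falls were Ptn, RatNP-3b, Pik3r1, Septin7, Mcpt10, Prkar2b, Fam117b and Isl2. Il6 lost it without CON(SN) channel 3 alone and Ptn without CON(SN) channel 2 alone, while Septin7 and Prkar2b lost it in each of the 6 cases. With the 6 channels alone in the fit, 6 probes were called, among them Atf3, Reg3b, Gfap, Gadd45g and Reg3a. The number of arrays limits the precision of every value here.

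Most groups of genes held no call at 24 h. In 17 lists with 281 different measured genes limma called none in the channel fit and 2 within arrays (Gadd45a and the adrenergic receptor Adra2c), while 13 were higher and 12 lower at an unadjusted p below 0.05, together 8.9% against 4.65% of all probes. Their medians ran from -0.14 to 0.17, around the -0.01 of all probes. Among them were voltage-gated ion channels (23 measured, median 0.02), nociceptor receptors and transducers (18, -0.08), neurofilaments, tubulins and actins (21, -0.05), oxidative phosphorylation genes (31, 0.08) and cell cycle genes (19, -0.04). Macrophage markers had the highest median of these, 0.17 over 10 genes, with summed intensities of 38075 to 53547 in SN24h and 27368 to 37472 in CON(SN), which do not overlap. Most of that sum was Spp1, which averaged 28450 in SN24h and 18430 in CON(SN), and Gpnmb, at 7487 in SN24h and 4414 in CON(SN), neither of them called. Gpnmb was at 0.72, and at -0.09 without CON(SN) channel 2. Csf1r, the receptor of Csf1, averaged 408 in SN24h and 406 in CON(SN). Spp1 and Csf1r were named after their values were seen. Aif1, a macrophage and microglia marker, read 544, 543 and 548 in SN24h and 359, 389 and 333 in CON(SN). Its difference of 0.62 ± 0.22 was not called (adjusted p = 0.47). Over all 31 lists 17 of 486 measured genes were called higher and 7 lower, together 4.94%, against 0.497% of all probes, and the lists had been drawn up with such genes in mind.

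The change from 12 h to 24 h was tested without the control channels, although SN24h itself is shared with the results above. In SN24h 18 probes were higher than in SN12h (0.213%) and 1 was lower (0.0118%). Csrp3 read 575, 395 and 399 in SN24h and 79, 65 and 76 in SN12h, a difference of 2.62 ± 0.20 (adjusted p = 4.75e-12). Gfap read 673, 825 and 762 in SN24h and 227, 135 and 241 in SN12h, a difference of 1.95 ± 0.20. Arg1 differed by 1.88 ± 0.21 and Ankrd1 by 1.87 ± 0.21, with SN12h channels of 57 to 117 for Arg1 and 63 to 66 for Ankrd1. For these 4 genes the SN12h values lay in or near the range of CON(SN). Atf3, at 1502, 985 and 1251 in SN12h, was between the pools and 2.66-fold higher in SN24h (1.41 ± 0.22, adjusted p = 0.000167). Reg3b, at 515, 291 and 461 in SN12h, was likewise between them and higher by 1.5 ± 0.29 in SN24h.

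Other named genes that were higher in SN24h than in SN12h were Serpinb2 (1.65), Vip (1.44), Tgm1 (1.30), Stmn4 (1.25), Il6 (1.13), Vgf (0.99), Myom2 (0.80), Ifitm3 (0.78), Nfil3 (0.78) and Ccdc28a (0.67), and the last 2 of the 18 probes have no gene name. Vip thus passed against SN12h, where it read 30, 36 and 29, and not against CON(SN). Ccl2 was the 1 gene lower in SN24h, at 298, 324 and 352 against 670, 610 and 547 in SN12h (-0.91 ± 0.21, adjusted p = 0.0477). Within arrays 6 probes were called higher (0.071%), Csrp3, Gal, Gfap, Arg1, Ankrd1 and Il6, and Ccl2 was at -0.97 (adjusted p = 0.242). The steps of Atf3 and Reg3b kept their sign within arrays, at 1.20 and 1.25, and were not called.

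Against SN48h, 1 probe was higher in SN24h (0.0118%) and 19 were lower (0.225%). Ras-related Rrad read 224, 146 and 156 in SN24h and 922, 913 and 1057 in SN48h (-2.48 ± 0.20, adjusted p = 1.31e-11). The peptide urocortin (Ucn) read 91, 87 and 112 in SN24h and 502, 432 and 491 in SN48h (-2.30 ± 0.19). Npy read 217, 427 and 214 in SN24h and 3453, 942 and 934 in SN48h (-2.42 ± 0.46, adjusted p = 0.00274). Against CON(SN) at 24 h Rrad was at 0.20, Ucn at 0.58 and Npy at -0.02, none of them called. The protease inhibitors Serpina3n (-1.81) and A2m (-1.5), the iron hormone Hamp (-1.70) and Vip (-1.62) were also lower in SN24h than in SN48h. Csrp3 (-2.09), Tgm1 (-1.61), Arg1 (-1.49), Ankrd1 (-1.02) and Csf1 (-0.80) had risen at 24 h and were lower then than at 48 h. Atf3 differed by 0.11 ± 0.22 from SN48h and Gfap by 0.08 ± 0.20, neither called. Within arrays 36 probes were called (0.426%), 2 higher (0.0237%) and 34 lower (0.402%), and 17 of the 19 lower probes were lower in both fits.

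The values at each SN time, all against the same 3 CON(SN) channels, place the 24 h calls in the course. Channel 3 of SN6h was 1 of the 6 channels that stood apart on the first principal component, and the 6 h values include it. Atf3 was at 0.07 at 6 h, 2.77 at 12 h, 4.19 at 24 h, 4.08 at 48 h, 3.82 at 72 h, 3.34 at 7 d and 3.79 at 14 d. In the authors' deposited table Atf3 was at 1.00 at 6 h and 3.35 at 12 h, and Csrp3 at 0.54 at 6 h and 0.11 at 12 h. Csrp3 was at -0.25, -0.41, 2.21, 4.30, 4.34, 2.67 and 2.97 at the same times, so that in the channel fit it was first called at 24 h. Il6 was at -0.06, 0.04, 1.17, 0.93, 0.40, 0.09 and 0.53, and its values at 24 h and 48 h were not shown to differ (0.24 ± 0.21). Over the 24 called rises the median was 0.08 at 6 h, 0.25 at 12 h, 1.18 at 24 h, 1.64 at 48 h, 1.46 at 72 h, 0.74 at 7 d and 1.00 at 14 d. Over the 18 called falls it was -0.75 at 6 h, -0.71 at 12 h, -0.96 at 24 h, -0.99 at 48 h and -0.30 at 14 d. Both sets were chosen by their 24 h values against these control channels, so the size of the 24 h medians is set in part by that choice.

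Np4 was at -0.43, -1.17, -1.55, -1.44, -1.86, -2.07 and -2.37 from 6 h to 14 d, and Hbb at 0.09, -1.31, -1.09, -1.0, -0.79, -1.24 and -2.18, both lowest at 14 d. Ptn was at -1.28, -0.59, -1.20, -1.16, -1.23, -0.88 and 0.30, and Pdia4 at -0.94, -0.64, -0.81, -0.80, -0.90, -0.60 and 0.04, already low at 6 h and back at the control at 14 d. Because the control channels are shared, these values are not independent of each other.

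**Figure D4:**
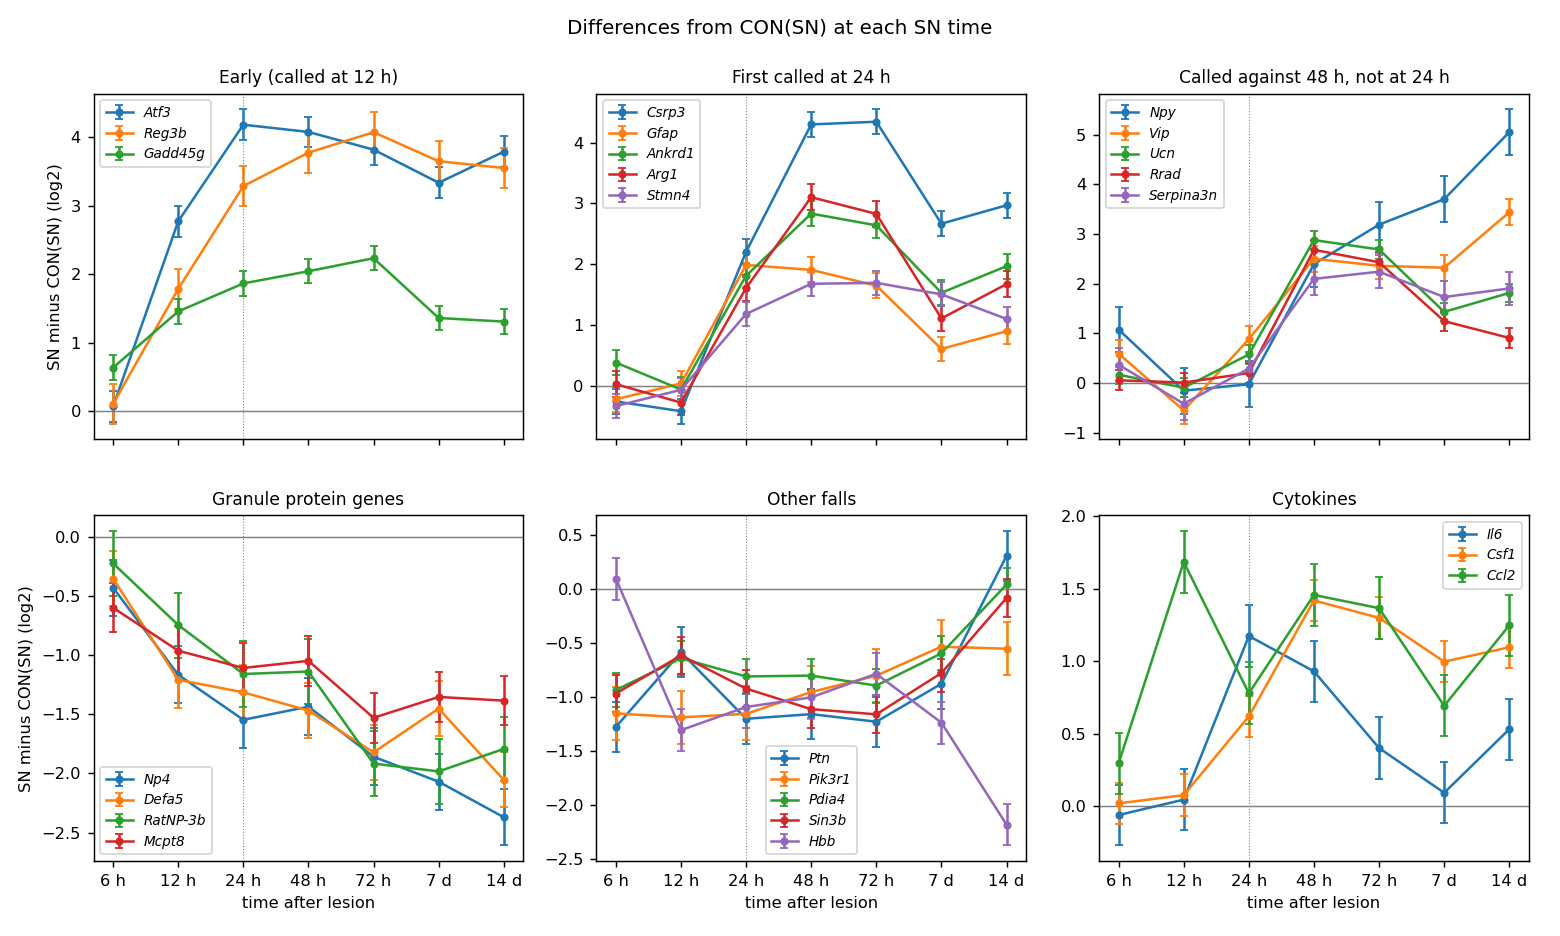
Log2 difference from CON(SN) (mean ± SE of the channel fit) at 6, 12, 24, 48 and 72 h and 7 and 14 d after the SN lesion, in 6 panels of named genes, with a dotted line at 24 h. Atf3, Reg3b and Gadd45g are already raised at 12 h, Csrp3, Gfap, Ankrd1, Arg1 and Stmn4 first at 24 h, and Npy, Ucn, Rrad and Serpina3n at 48 h.

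The response to the DR lesion at the same time was set against that to the SN lesion by the difference of the changes, (SN24h minus CON(SN)) minus (DR24h minus CON(DR)). By this measure 9 probes were higher (0.106%) and 20 lower (0.237%). Atf3 rose after both lesions, to 1031, 862 and 1269 in DR24h against 145, 150 and 146 in CON(DR), a change of 2.83 ± 0.22. The SN change was larger by 1.36 ± 0.32 (adjusted p = 0.0382). Csrp3 read 68, 74 and 77 in DR24h and 70, 83 and 90 in CON(DR), with no rise, so the difference of changes was 2.30 ± 0.29 (adjusted p = 7.61e-06). Ankrd1 (1.83 ± 0.30) and Arg1 (1.43 ± 0.30) had DR changes that were not called in the channel fit, at -0.02 and 0.18. Within arrays their DR values were -0.10 and 0.35. These 4 kept the call within arrays, with adjusted p from 0.00129 for Csrp3 to 0.0435 for Arg1.

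Other SN rises had DR changes that were not shown to differ. Reg3b was at 3.29 ± 0.29 after SN and 2.32 ± 0.29 after DR (difference 0.97, adjusted p = 0.566), Gfap at 1.99 and 1.18 (0.81, adjusted p = 0.32), and Vgf at 1.26 and 1.67 (-0.41, adjusted p = 0.9998). Snap25 differed in the other direction: it read 8524, 6724 and 9463 in DR24h and 1629, 1527 and 1861 in CON(DR), a DR change of 2.27 against 0.89 for SN (-1.38 ± 0.28, adjusted p = 0.0092). Among the falls Ptn (-1.48), Sin3b (-1.31), Pdia4 (-1.19) and Calm3 (-1.14) differed from DR24h, where Ptn was at 0.28, Sin3b at 0.39, Pdia4 at 0.38 and Calm3 at 0.20. The Calm3 values are those of its dimmer probe. Its brighter probe, at 0.46 ± 0.21 after SN, was not called for this difference in the channel fit. Sin3b was not called within arrays (adjusted p = 0.0743). The defensin and mast cell protease falls were not shown to differ: Np4 was at -1.55 after SN and -1.12 after DR (difference -0.42), and Mcpt8 at -1.11 and -0.98 (-0.13). Within arrays 42 probes were higher (0.497%) and 43 lower (0.509%), and 7 and 14 were called the same way in both fits.

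**Figure D5:**
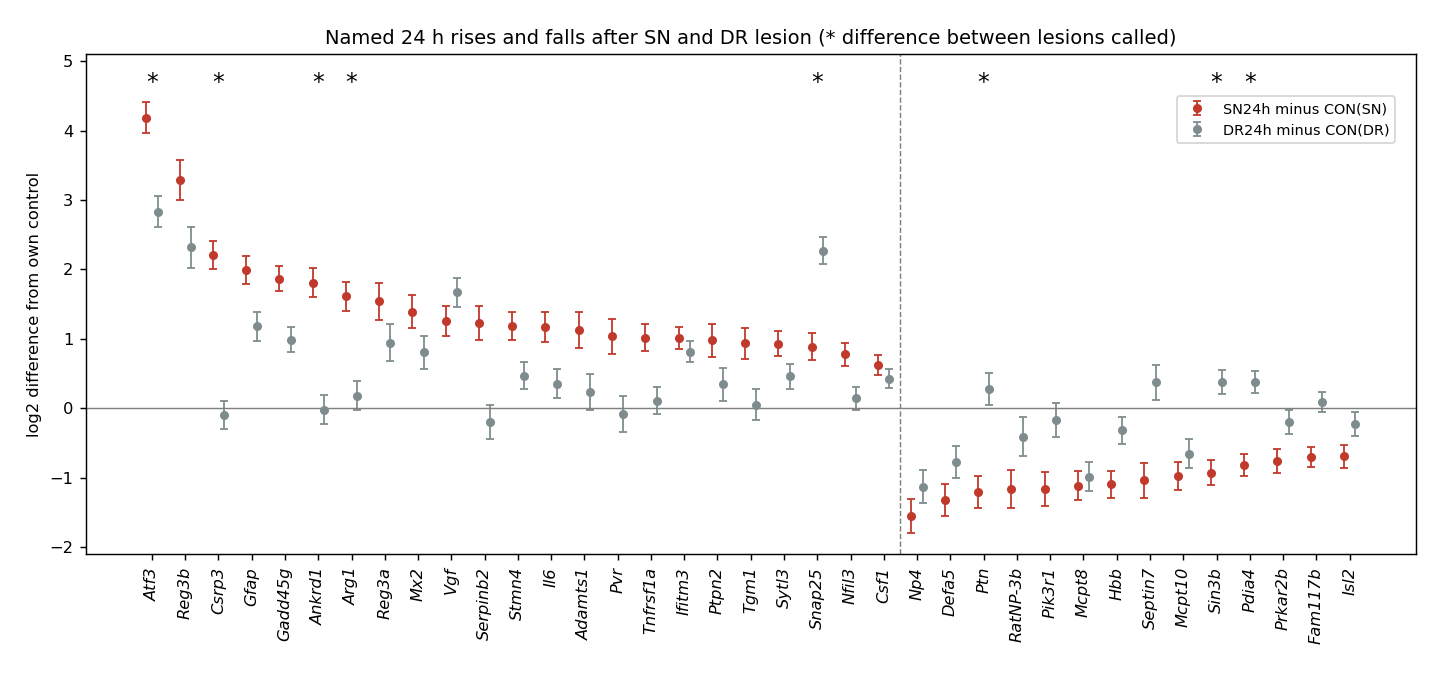
Log2 change 24 h after the SN lesion (red, left of each pair) and after the DR lesion (grey, right), each against its own control with its SE, for the 23 named rises and, right of the dashed line, 14 named falls (without Calm3); an asterisk marks a called difference between the changes. Csrp3, Ankrd1 and Arg1 are raised in red and near 0 in grey, and Snap25 is higher in grey.

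The 2 control pools carry no lesion time in their labels. CON(SN) was called higher than CON(DR) for 2 probes (0.0237%) and lower for none. At an unadjusted p below 0.05 they differed for 986 of 8455 probes. That is more than the 194 higher and 199 lower (4.65%) of SN24h against CON(SN), so few calls do not mean that the control pools were alike. These pools were hybridised in separate loops, so a within-array value could not be computed and the loop and the pool cannot be told apart.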

How the data were processed

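Total RNA of pooled rat ganglia was hybridised to 2-colour arrays in an interwoven loop, per the labels' protocols. The deposited values are intensities that the authors normalised, on a linear scale, 1 column per channel. The authors also deposited log2 coefficients for each time. The background correction and normalisation are not given in the sources used here, and limma is named in the submitters' processing notes. Intensities of 52 channels were mapped to groups by title. Log2 values, with no pseudocount and no filter on dim probes, were fitted with limma 3.58.1 in R 4.3.3 with group and dye as terms (35 residual degrees of freedom). Channels were joined into 26 arrays after the data were seen, by the best match of their differences to those of the deposited coefficients. The arrays were fitted as Cy5 minus Cy3 with a dye term (11 residual degrees of freedom). A gene with several probes went by its brightest probe. p-values were Benjamini-Hochberg adjusted over 8455 probes. The fits were tested on simulated channels with independent errors, so effects shared by the 2 channels of an array were not part of that test. Named genes were up to 24 rises and 16 falls with the largest change, up to 4 called members of each list, 14 injury genes, and the 10 highest and 10 lowest calls of each further comparison. The members and lists were chosen with earlier results of these data known. Alternatives were other channel sets, no dye term, quantile normalisation, bright probes, a replicate block, other variance moderation, no fold limit and leaving out each channel.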

Additional observations from a re-analysis of the deposited data

Results flagged for a closer look

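The change 24 h after the SN lesion differed from that after the DR lesion, by the test of the difference of the changes, for 29 probes, of which the 18 genes with the largest differences are given here. Calm3 (-1.14, by its dimmer probe), Glrb (-1.13), Igfbp3 (-1.09), Numa1 (-1.07), Cat (-1.06) and Tubb5 (-0.99) were called too, and 5 probes have no gene name. The values are (SN24h minus CON(SN)) minus (DR24h minus CON(DR)), in log2. It was above 0 for Csrp3 (2.30), Ptprv (1.89), Ankrd1 (1.83), Arg1 (1.43), Atf3 (1.36), S100a4 (1.10), Stk16 (0.941) and Gpx4 (0.845). It was below 0 for Scd2 (-1.71), Slc38a1 (-1.62), Igfbp5 (-1.54), Hif1a (-1.49), Ptn (-1.48), Cdh22 (-1.46), Snap25 (-1.38), Sin3b (-1.31), Golph3 (-1.29) and Pdia4 (-1.19). Within arrays Stk16, Igfbp5, Hif1a and Sin3b were not called, with adjusted p of 0.122 for Stk16, 0.153 for Igfbp5, 0.0795 for Hif1a and 0.0743 for Sin3b.

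For several of these the SN change itself was small. Ptprv, a receptor-type tyrosine phosphatase, was at 0.16 after SN and -1.73 after DR, and S100a4, a calcium-binding protein, at 0.16 after SN and -0.95 after DR. A second S100a4 probe was nearly as bright (mean log2 11.67 against 11.73). It was at 0.07 after SN and was not called for the difference of changes in the channel fit. Over all DR times in the authors' deposited table, Ptprv ran from -1.74 to -1.21 and Scd2 from 0.55 to 0.91. S100a4 ran from -0.64 to 0.05 there and Igfbp5 from -0.97 to 0.52. All DR values share the CON(DR) pool, and its part in these differences was not tested. Hif1a, the oxygen-regulated transcription factor, was at -0.29 after SN and 1.20 after DR, and Slc38a1, a glutamine transporter, at -0.53 after SN and 1.09 after DR. Scd2, a fatty acid desaturase, read 9045, 8332 and 8601 in SN24h and 15615, 16069 and 14656 in CON(SN), with a change of -0.83 after SN that was not called (adjusted p = 0.0591) and of 0.89 after DR.

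A within-array refit of the 24 h coefficients with no dye term correlated with the authors' deposited ones over 8455 probes at 0.989 for SN and 0.679 for DR. The arrays had been joined by their match to these coefficients, so the correlations are no separate check. In the authors' deposited table Gpx4 was at 0.05 after SN and -0.27 after DR, and Igfbp5 at -0.41 after SN and 0.52 after DR, closer together than the values above.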

How the results depend on the processing

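No value called in the channel fit changed sign under any alternative run. Chst10 and Gap43 were called within arrays alone for the difference of the SN and DR changes, with the opposite sign. Chst10 was at -0.74 in the channel fit and 0.80 within arrays, and Gap43 at -0.24 in the channel fit and 0.85 within arrays. For SN24h against CON(SN), called in 42 probes, the count was 73 in the SN channels only, 6 in the 6 channels only, and 27 to 35 with 1 channel left out, lowest without CON(SN) channel 2. For SN24h against SN12h, called in 19, it was 6 within arrays and 13 to 18 with 1 channel left out. For SN24h against SN48h, called in 20, it was 36 within arrays and 13 to 22 with 1 channel left out, lowest without SN48h channel 1. For the difference of the SN and DR changes, called in 29, it was 45 with no dye term, 73 in bright probes, 85 within arrays, 79 without the 6 channels that stand apart (an alternative chosen after seeing the data) and 15 to 54 with 1 channel left out. The lowest came without CON(SN) channel 3 and without DR24h channel 3, the highest without CON(DR) channel 3. For CON(SN) against CON(DR), called in 2, it was 0 with no dye term, 24 without the channels that stand apart and 0 to 2 with 1 channel left out. The cause of these shifts was not tested. With the replicate number as a block the counts were 43, 19, 23, 36 and 2 in the same order of comparisons. Same-numbered channels of SN24h and CON(SN) deviated with correlations of 0.25, -0.05 and -0.23, so the numbers were not taken to pair the channels. In the gene lists 24 genes were called, and 31 within arrays. With 1 pool per group no value covers the spread between animals.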
